A study of Mus musculus with 8 samples.

Results

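The genes described here form the enzymatic antioxidant and glutathione system of the cell, taken as 38 named genes. RNA came from the islets of male mice on a C57Bl/6 background and was read on 8 Affymetrix arrays, 2 for each of 4 groups. The groups were Irs2-/- mice (Irs2 knockout) given sodium tungstate, Irs2-/- mice on distilled water, wild-type mice given tungstate, and wild-type mice on distilled water. Treatment ran for 21 days in the drinking water, from 10 weeks of age to 13 weeks, and its concentration is 2 mg/ml in the design text but 2 mg/dl in the sample labels. IRS2 is an adaptor protein of insulin signalling, and mice that lack it are used as a model of beta cell failure. The design text calls the 2 samples of a group independent, without saying whether a sample is 1 mouse or a pool, and the p-values below speak only to the spread among those samples. Of the 38 genes, 35 had a probe set that names 1 gene, and all 35 lay above the level filter of the tests, out of 18193 genes measured and 13369 tested. Prdx1, Prdx5 and Prdx6 had no such probe set and were not analysed here. Gsta4 had the lowest mean of the 35, 5.27, at the edge of the filter (5.27).

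Cells meet superoxide and hydrogen peroxide in steps. Superoxide dismutases turn superoxide into hydrogen peroxide, and catalase, glutathione peroxidases and peroxiredoxins remove the peroxide, the last 2 families at the expense of glutathione or thioredoxin, which reductases restore with NADPH. The transcription factor NRF2 (gene Nfe2l2), held down by KEAP1, drives many of these genes through antioxidant response elements. Beta cells are known for low levels of catalase and of glutathione peroxidase, which makes the system of interest in islets.

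All values below are log2 expression of 1 probe set per gene, so they compare groups for a gene and not genes with each other. Irs2 itself read 4.78 and 4.86 in treated and 4.54 and 4.89 in untreated Irs2-/- islets, against 7.89 and 7.61 in treated and 7.91 and 7.73 in untreated wild-type islets, which fits the labels. The tissue label was met by Ins2 (14.72 to 14.75) and Gcg (14.15 to 14.39), the insulin and glucagon genes, on all 8 arrays. Whole islets were measured, and markers of other cells moved with the groups. The mean of 11 macrophage markers was 7.53 and 7.60 in treated and 8.62 and 8.84 in untreated Irs2-/- islets, against 7.22 and 7.18 in treated and 7.37 and 7.14 in untreated wild-type islets. All 11 passed the test between untreated genotypes. The mean of 11 acinar markers (exocrine cells) was 11.28 and 12.10 in treated and 11.46 and 12.35 in untreated Irs2-/- islets, against 10.48 and 10.59 in treated and 9.07 and 11.96 in untreated wild-type islets. The mean of 8 fibroblast and stellate cell markers was 8.48 and 7.84 in treated and 8.83 and 8.44 in untreated Irs2-/- islets, against 6.19 and 6.55 in treated and 8.39 and 7.06 in untreated wild-type islets. The 9 beta cell markers averaged 11.07 and 11.64 in treated and 10.80 and 10.99 in untreated Irs2-/- islets, against 12.11 and 12.02 in treated and 12.02 and 12.06 in untreated wild-type islets. None of the 4 red blood cell markers on the array passed the filter, and their mean was 4.86 to 5.27. The mean of the 18S control probe sets was 11.92 and 11.12 in treated and 11.05 and 10.63 in untreated Irs2-/- islets, against 12.58 and 11.94 in treated and 11.75 and 12.70 in untreated wild-type islets. As measures of RNA quality, the 3' minus 5' signal of actin was 1.12 and 1.03 in treated and 0.73 and 0.94 in untreated Irs2-/- islets, against 1.08 and 1.03 in treated and 1.05 and 0.96 in untreated wild-type islets. For Gapdh it was 0.55 and 0.42 in treated and 0.42 and 0.37 in untreated Irs2-/- islets, against 0.54 and 0.49 in treated and 0.57 and 0.43 in untreated wild-type islets. Untreated Irs2-/- islets thus had the lowest mean of both, and its part in the results was not tested. In these bulk samples a change in the number of cells of a type and a change of RNA per cell cannot be told apart.

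**Figure D1:**
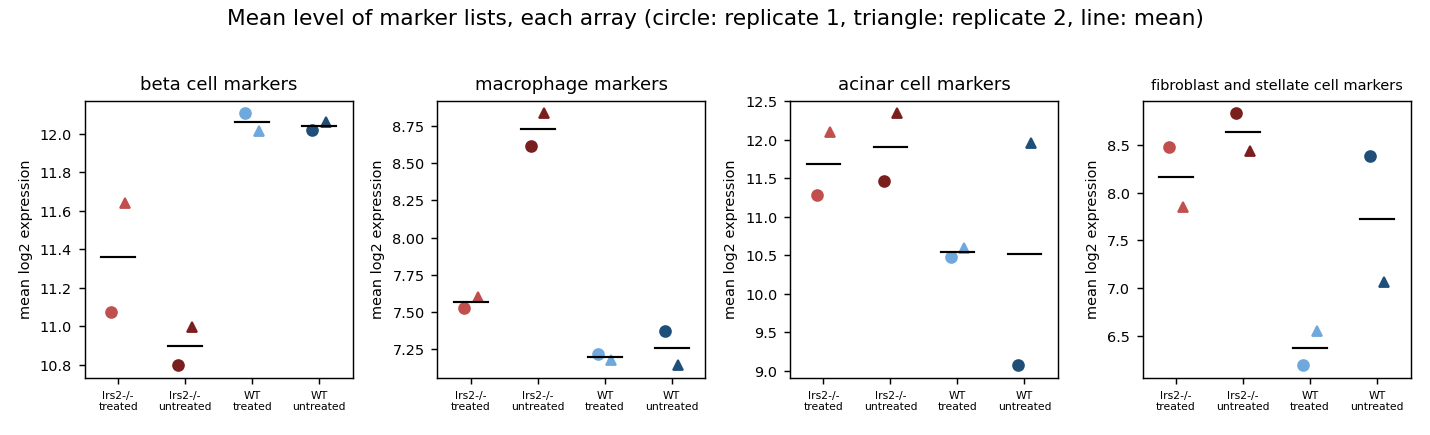
Mean log2 expression (y axis) of 4 marker lists in treated and untreated Irs2-/- and wild-type (WT) islets (x axis); circles are replicate 1, triangles replicate 2, lines the mean of both. Macrophage markers stand highest in untreated Irs2-/- islets (8.62 and 8.84), and acinar markers range from 9.07 to 11.96 within untreated wild-type islets.

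The first question was how loss of Irs2 bears on the antioxidant system. In untreated mice 6 of the 35 genes differed between genotypes. Gsto1, Prdx4, Gpx3, Txn1 and Sod1 rose in Irs2-/- islets, and Nqo1 fell, while 29 did not pass (limma, Benjamini-Hochberg adjusted p under 0.05 over all 13369 genes). This is 17.1% of the members, and 16.8% of all genes tested passed in the same comparison (8.27% higher, 8.52% lower), so the share of members called lay near the background. Their median difference was 0.15, against -0.01 over all genes. Averaged over treated and untreated mice, 11 of 35 genes differed (31.4%, against 22.1% of all genes), 8 higher (10.9% of all genes) and 3 lower (11.2% of all genes) in Irs2-/- islets. The members were chosen with earlier results of these data known, so a share above that of all genes is no independent support. In the comparison of untreated mice all 11 macrophage markers passed as higher. Of 9 beta cell markers 8 lay below 0 and 6 passed as lower. The part of these markers in the members' differences was not tested. Averaged over treatment, 6 of 8 endothelial, 3 of 4 duct and 5 of 8 fibroblast and stellate cell markers also passed as higher in Irs2-/- islets. Endothelial markers averaged 8.81 and 8.32 in treated and 8.60 and 8.52 in untreated Irs2-/- islets, against 7.76 and 7.90 in treated and 7.94 and 7.95 in untreated wild-type islets, without overlap. Duct markers averaged 7.30 to 7.85 in Irs2-/- and 7.11 to 7.28 in wild-type islets. The part of these markers was not tested either. The additional genes of the averaged comparison were Mgst1, Cat and Gpx7, higher, and Gstm2 and Hmox2, lower.

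**Figure D2:**
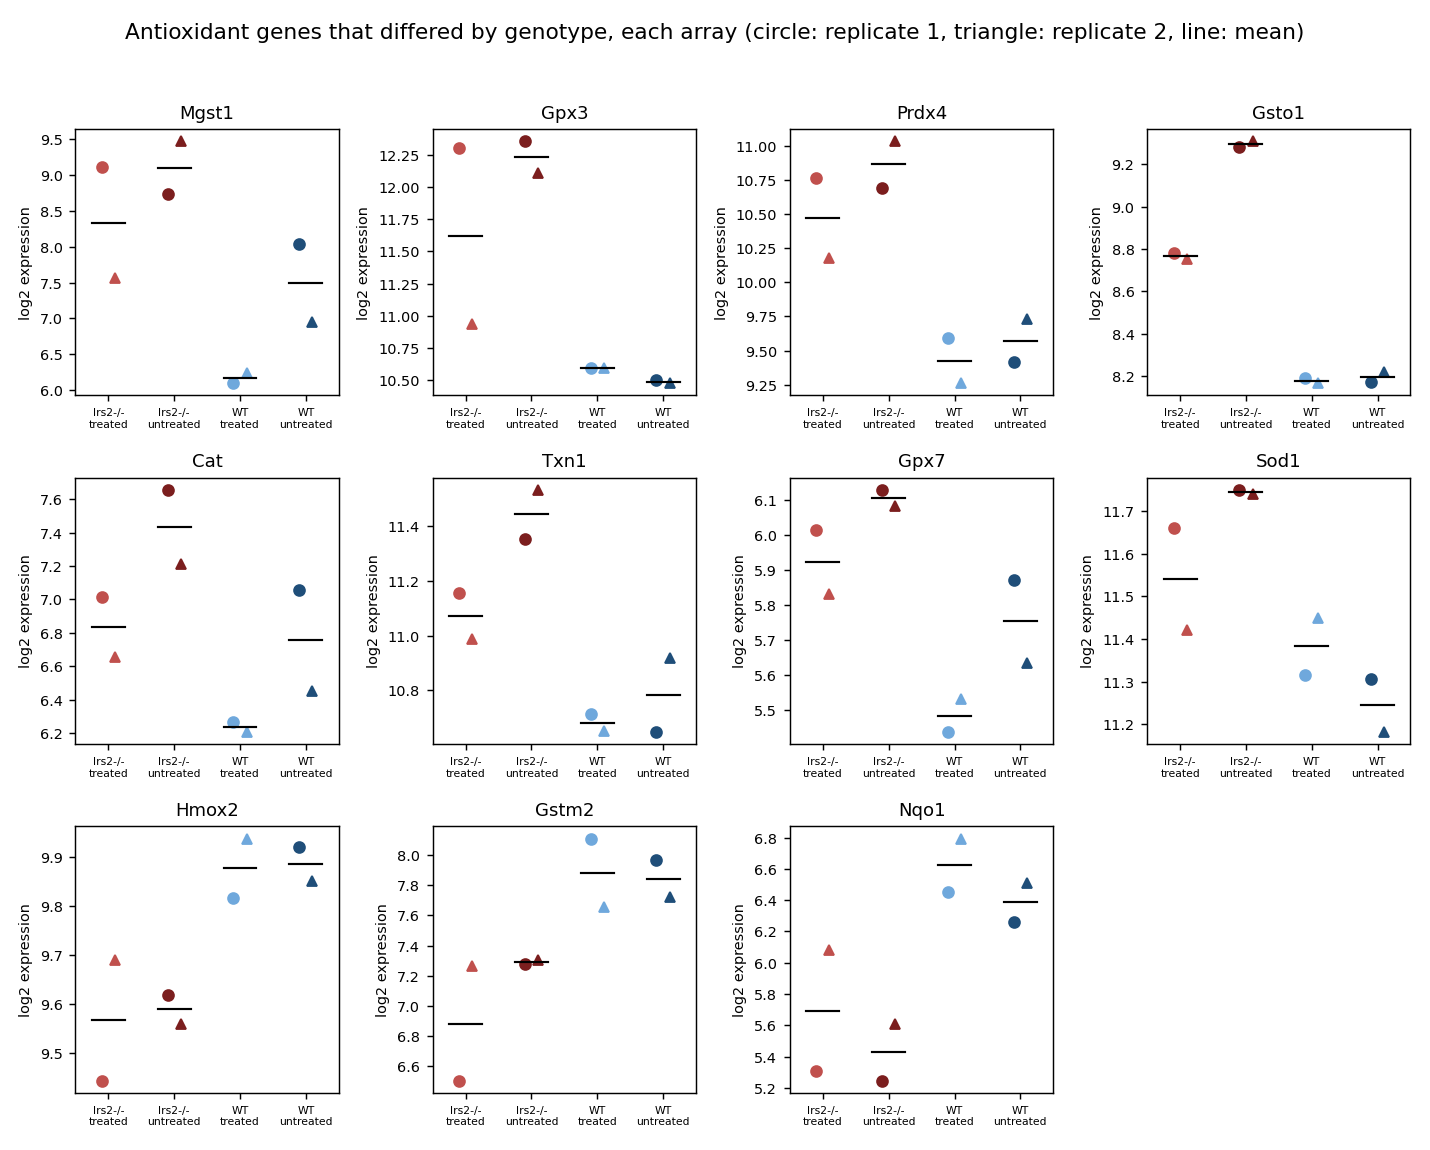
Log2 expression (y axis, its own range in each panel, not starting at 0) of the 11 genes that differed between genotypes averaged over treatment, by group (x axis); circles are replicate 1, triangles replicate 2, lines the mean of both. Gsto1 shows little spread within groups (9.28 and 9.31 in untreated Irs2-/- islets, 8.17 to 8.22 in wild-type islets), whereas Mgst1 spreads widely within groups.

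Glutathione transferases attach glutathione to electrophiles or, as GSTO1 does, use it to reduce substrates. Gsto1 (chromosome 19, 47854973 to 47864790, GRCm38.p6) had the smallest adjusted p of the members. It read 8.78 and 8.75 in treated and 9.28 and 9.31 in untreated Irs2-/- islets, against 8.19 and 8.17 in treated and 8.18 and 8.22 in untreated wild-type islets. Every Irs2-/- array lay above every wild-type array, and the untreated Irs2-/- arrays above the treated ones. The difference between untreated genotypes was 1.09 ± 0.10 (log2 ± SE, 2 arrays per group), a 2.14-fold higher level (limma adjusted p = 0.00164). A further Gsto1 probe set gave 1.25 for the same comparison. Mgst1, a membrane-bound transferase that also acts as a peroxidase, had the widest range of all 35 genes (3.38). It read 9.11 and 7.56 in treated and 8.74 and 9.47 in untreated Irs2-/- islets, against 6.09 and 6.24 in treated and 8.04 and 6.95 in untreated wild-type islets. Groups did not overlap within a treatment, yet untreated wild-type replicate 1 lay above treated Irs2-/- replicate 2. Averaged over treatment Mgst1 was 1.89 ± 0.37 higher in Irs2-/- islets (limma adjusted p = 0.0112). Fibroblast and stellate cell markers were also lowest in treated wild-type islets and higher on untreated wild-type replicate 1 (8.39) than on replicate 2 (7.06); their part in this result was not tested. A second Mgst1 probe set lay under the filter and gave -0.22 in untreated mice, and with the mean of both the averaged difference was 0.89 (limma adjusted p = 0.0188).

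Gstm2, of the cytosolic mu class, went the other way. It read 6.50 and 7.26 in treated and 7.28 and 7.31 in untreated Irs2-/- islets, against 8.11 and 7.66 in treated and 7.97 and 7.72 in untreated wild-type islets, without overlap between genotypes. It fell by 0.78 ± 0.18 averaged over treatment (limma adjusted p = 0.0194), but did not pass with acinar marker levels in the model (limma adjusted p = 0.0845). Its difference was -0.85 to -0.76 in every alternative that kept all arrays. With the acinar covariate 1797 of all 13369 genes passed averaged over treatment, against 2950 without it. Mu-class genes resemble each other in sequence, so values of single genes of the class are uncertain. Its neighbour Gstm1 differed by -0.19 ± 0.12 and did not pass. Gsta4 and Mgst3 did not pass either, at 0.14 ± 0.13 and 0.25 ± 0.14 averaged over treatment.

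Among the peroxiredoxins, Prdx4, which removes peroxide in the endoplasmic reticulum where insulin is folded, rose. Prdx4 (chromosome X) read 10.76 and 10.18 in treated and 10.69 and 11.03 in untreated Irs2-/- islets, against 9.59 and 9.26 in treated and 9.41 and 9.73 in untreated wild-type islets. No Irs2-/- array overlapped a wild-type array. The difference was 1.29 ± 0.23 in untreated mice (2.45-fold, limma adjusted p = 0.0116) and 1.04 ± 0.23 in treated mice (limma adjusted p = 0.0782). Prdx4 is also made in exocrine cells, whose markers were 9.07 and 11.96 on the untreated wild-type arrays. With acinar marker levels in the model, the untreated difference was 1.19 (limma adjusted p = 0.036), and the averaged one was 1.08 (limma adjusted p = 0.0198). All 11 acinar markers lay above 0 between untreated genotypes and 1 of them passed, while their mean overlapped between the arrays of the genotypes. This model therefore cannot fully separate genotype from acinar content, and the same limit holds for every gene given with it. The untreated call was lost without untreated wild-type replicate 1, the array lowest in acinar markers. With arrays left out one at a time, the untreated difference was 1.12 to 1.46. A mean of its 4 probe sets gave 0.77 for untreated mice, and this also passed. Cytosolic Prdx2 (0.17 ± 0.15), mitochondrial Prdx3 (0.08 ± 0.12) and Srxn1, the sulfiredoxin that repairs over-oxidised peroxiredoxins (0.36 ± 0.20), did not pass in untreated mice.

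Among glutathione peroxidases, the secreted form Gpx3 had the largest called difference in untreated mice. It read 12.31 and 10.94 in treated and 12.36 and 12.11 in untreated Irs2-/- islets, against 10.59 and 10.60 in treated and 10.49 and 10.47 in untreated wild-type islets. The 4 wild-type arrays lay within 10.47 to 10.60, and every Irs2-/- array lay above them, treated replicate 2 least. The difference was 1.75 ± 0.36 between untreated genotypes, or 3.37-fold (limma adjusted p = 0.0184), and 1.39 ± 0.26 averaged over treatment (limma adjusted p = 0.00929). Gpx7, a peroxidase of the endoplasmic reticulum, read 6.02 and 5.83 in treated and 6.13 and 6.08 in untreated Irs2-/- islets, against 5.44 and 5.53 in treated and 5.87 and 5.63 in untreated wild-type islets. Untreated wild-type replicate 1 thus overlapped the Irs2-/- range, and the averaged difference was 0.40 ± 0.09 (limma adjusted p = 0.0193). It did not pass after quantile normalization (0.30, limma adjusted p = 0.0534). The other reticulum form, Gpx8, was 0.43 ± 0.17 (adjusted p = 0.112 in limma). Gpx1, the main cytosolic enzyme, Gpx2, first known from the gut, and Gpx4, which reduces lipid peroxides, did not pass at 0.20 ± 0.09, 0.23 ± 0.13 and 0.00 ± 0.12 averaged over treatment.

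Of the enzymes that act first on superoxide and on peroxide, cytosolic Sod1 and catalase were higher. Sod1 read 11.66 and 11.42 in treated and 11.75 and 11.74 in untreated Irs2-/- islets, against 11.32 and 11.45 in treated and 11.31 and 11.18 in untreated wild-type islets. Only the untreated groups stood clear of each other, with a difference of 0.50 ± 0.13 (limma adjusted p = 0.0338). A second bright Sod1 probe set gave 0.48, but 3 dim ones, 1 of them under the filter, gave -0.04, -0.09 and 0.02, and the mean of all 5 was 0.17, which did not pass (limma adjusted p = 0.238). Averaged over treatment Sod1 was 0.33 ± 0.09 higher (limma adjusted p = 0.0344), and this did not pass with acinar marker levels in the model (limma adjusted p = 0.0611). Cat read 7.01 and 6.65 in treated and 7.66 and 7.21 in untreated Irs2-/- islets, against 6.27 and 6.21 in treated and 7.06 and 6.45 in untreated wild-type islets. The genotypes did not overlap within either treatment but did across them, and the averaged difference was 0.64 ± 0.16 (limma adjusted p = 0.0299). Its second probe set gave 0.65 in untreated and 0.38 in treated mice, beside 0.68 and 0.60 for the one used. Mitochondrial Sod2 (0.03 ± 0.07) and extracellular Sod3 (0.28 ± 0.10) did not pass when averaged.

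In the thioredoxin system the cytosolic Txn1 rose and its partners did not pass. Txn1 read 11.15 and 10.99 in treated and 11.35 and 11.53 in untreated Irs2-/- islets, against 10.71 and 10.65 in treated and 10.65 and 10.92 in untreated wild-type islets. The genotypes did not overlap, with untreated wild-type replicate 2 (10.92) close to treated Irs2-/- replicate 2 (10.99). The difference was 0.66 ± 0.14 in untreated mice (limma adjusted p = 0.0181) and 0.53 ± 0.10 averaged (limma adjusted p = 0.00913). With the mean of all Txn1 probe sets the differences were 0.43 in untreated mice (limma adjusted p = 0.0539) and 0.28 averaged (limma adjusted p = 0.062). Neither passed when acinar marker levels entered the model (limma adjusted p = 0.0603 in untreated mice and 0.0559 averaged). Mitochondrial Txn2 and the reductases Txnrd1 and Txnrd2 differed by 0.12 ± 0.08, -0.08 ± 0.09 and 0.03 ± 0.07 averaged over treatment. Txnrd2 had the smallest range of all members, 0.12 over 8 arrays. Txnip, which binds and inhibits thioredoxin and is no member, read 11.89 and 11.70 in treated and 12.97 and 12.35 in untreated Irs2-/- islets, against 11.92 and 11.13 in treated and 11.90 and 11.47 in untreated wild-type islets, and did not pass (0.97 ± 0.30 in untreated mice, limma adjusted p = 0.0603). The glutaredoxins Glrx and Glrx2, which reduce proteins bound to glutathione, were -0.25 ± 0.12 and 0.21 ± 0.09, and neither passed.

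None of the 4 genes that make or recycle glutathione passed in any of the comparisons. Averaged over treatment, Gclc and Gclm, the subunits of the rate-limiting ligase, were 0.12 ± 0.12 and -0.15 ± 0.08. Gss, which adds the last amino acid, and Gsr, which reduces oxidised glutathione, were -0.16 ± 0.08 and -0.19 ± 0.10. The 95% intervals of the averaged differences of these 4 genes lay between -0.41 (the lower bound of Gsr) and 0.39 (the upper bound of Gclc). The 4 Irs2-/- arrays of Gclm, 9.70 to 9.87, all lay below the 4 wild-type arrays, 9.88 to 10.02, although the test was not passed.

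The regulators of the pathway did not pass, whereas the quinone reductase Nqo1, a textbook NRF2 target, fell. Nqo1 read 5.31 and 6.08 in treated and 5.25 and 5.61 in untreated Irs2-/- islets, against 6.45 and 6.79 in treated and 6.26 and 6.51 in untreated wild-type islets. The genotypes did not overlap, although both groups lay in the lower part of the scale. The difference was -0.96 ± 0.26 in untreated mice (limma adjusted p = 0.0422) and -0.94 ± 0.18 averaged over treatment (limma adjusted p = 0.0108). Nfe2l2 and Keap1 differed by -0.08 ± 0.09 and 0.00 ± 0.09 averaged over treatment. Hmox1, the inducible heme oxygenase, did not pass (0.04 ± 0.13), and Hmox2, the constitutive form, fell by 0.30 ± 0.09 (limma adjusted p = 0.0431). Hmox2 did not pass with acinar marker levels in the model (limma adjusted p = 0.154) or after quantile normalization (limma adjusted p = 0.0572). Its difference was -0.38 to -0.29 in every alternative that kept all arrays. Hmox2 read 9.44 and 9.69 in treated and 9.62 and 9.56 in untreated Irs2-/- islets, against 9.82 and 9.94 in treated and 9.92 and 9.85 in untreated wild-type islets, without overlap.

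**Figure D3:**
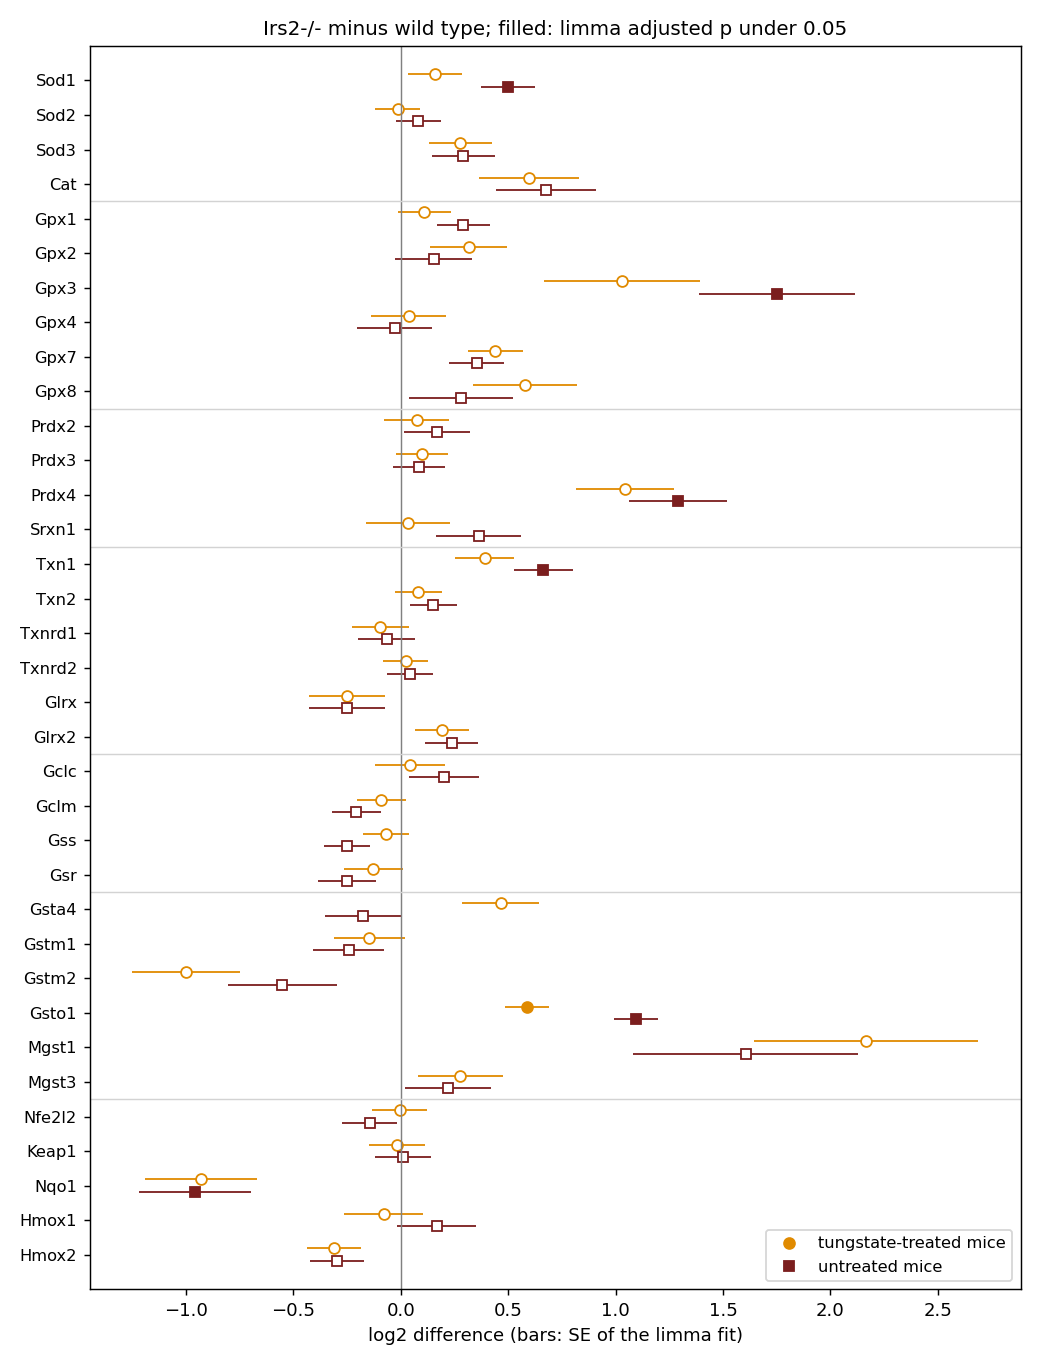
Log2 difference of Irs2-/- minus wild-type islets (x axis) for the 35 genes tested (y axis, grouped by role, grey lines between groups), in treated mice (circles) and untreated mice (squares). Bars are the SE of the limma fit over 2 arrays per group, filled symbols passed an adjusted p of 0.05. The 6 filled squares are Sod1, Gpx3, Prdx4, Txn1, Gsto1 and Nqo1, and the 1 filled circle is Gsto1.

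Promoters are shown for members that differed and for 1 NRF2 target that did not pass, so that the letters can be set beside the values above. RefSeq windows (GRCm38.p6) were found for 32 of the 38 genes, and none for Sod3, Prdx6, Gclc, Gsr, Gsta4 and Hmox1. They were searched on both strands for the core of the antioxidant response element, TGACNNNGC, from 250 bases before to 50 after the start. It occurred in 7 of the 32 genes (21.9%), against 14.0% of all 27025 genes with such windows: Sod1, Mgst1, Gclm, Nfe2l2, Txnrd1, Srxn1 and Prdx1. Of the 11 genes that differed by genotype, only Sod1 and Mgst1 held it in their windows, both beginning 56 bases before the start on the opposite strand (1 of 2 windows for Mgst1, the one shown). The Nqo1, Gsto1 and Prdx4 windows held none of these letters, and Gclm held 1 match 134 bases before the start. A match is a description of the letters and not a binding site. Bases farther from the start were not searched, so a window without a match does not show that the gene lacks the element. The 250 bases before the start follow, 5′ to 3′, with matches in capitals.
Gsto1, chr19:47854723-47854972, plus strand: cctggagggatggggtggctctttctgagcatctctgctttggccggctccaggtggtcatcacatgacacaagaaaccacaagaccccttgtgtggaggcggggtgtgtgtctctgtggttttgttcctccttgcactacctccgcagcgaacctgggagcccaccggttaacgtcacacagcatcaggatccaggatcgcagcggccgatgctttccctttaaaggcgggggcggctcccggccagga
Prdx4, chrX:155338461-155338710, minus strand: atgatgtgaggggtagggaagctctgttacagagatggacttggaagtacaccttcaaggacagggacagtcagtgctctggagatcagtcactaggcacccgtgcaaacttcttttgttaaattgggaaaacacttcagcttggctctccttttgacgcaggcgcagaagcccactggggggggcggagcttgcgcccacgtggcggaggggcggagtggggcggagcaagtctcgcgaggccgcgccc
Nqo1, chr8:107403206-107403455, minus strand: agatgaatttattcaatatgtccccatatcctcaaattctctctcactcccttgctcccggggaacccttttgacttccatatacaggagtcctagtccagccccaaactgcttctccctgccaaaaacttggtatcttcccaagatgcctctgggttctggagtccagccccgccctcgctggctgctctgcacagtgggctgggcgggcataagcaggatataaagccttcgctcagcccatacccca
Sod1, chr16:90220512-90220761, plus strand: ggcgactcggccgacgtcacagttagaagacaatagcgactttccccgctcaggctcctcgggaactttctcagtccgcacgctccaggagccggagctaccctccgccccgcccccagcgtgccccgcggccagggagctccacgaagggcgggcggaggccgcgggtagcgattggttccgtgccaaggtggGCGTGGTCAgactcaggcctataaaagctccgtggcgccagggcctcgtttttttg
Mgst1, chr6:138140277-138140526, plus strand: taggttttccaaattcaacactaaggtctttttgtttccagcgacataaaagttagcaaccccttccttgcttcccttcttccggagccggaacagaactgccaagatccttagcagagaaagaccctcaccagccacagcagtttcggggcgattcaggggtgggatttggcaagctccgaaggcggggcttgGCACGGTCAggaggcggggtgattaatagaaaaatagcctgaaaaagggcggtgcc
Gclm, chr3:122245307-122245556, plus strand: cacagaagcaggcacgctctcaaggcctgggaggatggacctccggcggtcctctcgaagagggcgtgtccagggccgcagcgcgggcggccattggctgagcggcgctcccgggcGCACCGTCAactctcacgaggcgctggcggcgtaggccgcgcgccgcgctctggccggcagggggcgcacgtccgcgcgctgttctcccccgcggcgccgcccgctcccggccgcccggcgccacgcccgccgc

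In treated mice the same comparison of genotypes called only Gsto1 (1 of 35, 2.86%, against 1.02% of all genes, 0.636% higher and 0.389% lower). Gsto1 was 0.59 ± 0.10 higher in Irs2-/- islets (limma adjusted p = 0.0458). An unadjusted p under 0.05 was reached by 12 of the 35 members and by 2147 of all 13369 genes. With acinar marker levels in the model the called gene was Cat instead of Gsto1. The 34 others ranged from -1.0 (Gstm2) to 2.17 (Mgst1), with a median of 0.07 over all 35. The genotype comparisons in treated and untreated mice use separate arrays, so their signs can be set side by side. The sign was the same for 30 of the 35 members (85.7%, against 75.8% of all genes tested), and for all 6 that passed in untreated mice (against 97.0% of all genes that passed there). For these 6 the difference on the probe set used was smaller in treated than in untreated mice. In treated mice it was 0.16 for Sod1, 1.03 for Gpx3, 1.04 for Prdx4, 0.39 for Txn1, 0.59 for Gsto1 and -0.93 for Nqo1. The further Prdx4 probe sets above the filter went the other way, at 1.32 in treated against 0.93 in untreated mice, and 0.69 against 0.62. Of all genes that passed in untreated mice, 91.7% were likewise of the same sign and smaller in treated mice. The 6 were picked by passing in untreated mice, so a smaller difference in treated mice is no separate result. Of all 35 members, 20 (57.1%) had the same sign and a smaller difference in treated mice, against 53.1% of all genes tested.

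The treated Irs2-/- arrays were unlike each other in some of these genes, such as Mgst1 (9.11 and 7.56) and Gpx3 (12.31 and 10.94). In others they were close, such as Gsto1 (8.78 and 8.75). For all 11 genes called by genotype averaged over treatment, replicate 1 lay farther from the wild-type mean than replicate 2. This held for 70.8% of all 2950 genes called in that comparison. Replicate 1 also had the lower beta cell marker level, 11.07 against 11.64. Without replicate 2, genotype differed in treated mice for 7 members (Mgst1, Gpx3, Prdx4, Gsta4, Gsto1, Nqo1 and Gstm2), at 5.08% of all genes, and without replicate 1 for 0 members, at 0.135% of all genes. Leaving out any 1 of the 6 arrays of the other groups also left 0 members called in treated mice. Of all genes, 0.0224% and 0.0299% were called without a treated wild-type array, 0.516% without an untreated Irs2-/- array and 1.22% without an untreated wild-type array.

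The next question was what tungstate does to these genes. In Irs2-/- islets 0 of 35 passed limma's test, while 0.494% of all genes did, 0.0224% higher and 0.471% lower. At an unadjusted p under 0.05 there were 4 of 35 members and 1780 of all 13369 genes. The members lay between -0.77 (Mgst1) and 0.35 (Gsta4) in treated minus untreated islets, with 26 of 35 below 0 (52.0% of all genes were) and a median of -0.11 against -0.01 over all genes. The 4 with an unadjusted p under 0.05 were Gsto1 (-0.53 ± 0.10, limma adjusted p = 0.0879), Txn1 (-0.37 ± 0.14), Cat (-0.60 ± 0.23) and Hmox1 (-0.47 ± 0.18). For each of them both treated arrays lay below both untreated arrays. This is no separate result, since the 4 were picked by p in the same comparison. Hmox1, abundant in macrophages, read 5.50 and 6.01 in treated Irs2-/- islets, against 6.28 and 6.17 in untreated ones. The mean of the macrophage markers was 7.53 and 7.60 in treated against 8.62 and 8.84 in untreated Irs2-/- islets. All 11 were lower with tungstate, 6 of them past the adjusted threshold, and their part in these values was not tested. Gpx3 was -0.61 ± 0.36, and it passed only without treated replicate 1 (-1.30, limma adjusted p = 0.0202).

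In wild-type islets tungstate moved 0 of 35 members past limma's threshold, as it did 0.0% of all genes. An unadjusted p under 0.05 was reached by 1 of 35 members and by 364 of all 13369 genes. The member with the lowest unadjusted p was Mgst1, at -1.33 ± 0.52 and not past the adjusted threshold, with a 95% interval of -2.54 to -0.12. The others lay between -0.52 (Cat) and 0.24 (Nqo1). Of the 35 members 22 lay below 0 (62.9%, against 57.6% of all genes), with a median of -0.04 against -0.03 over all genes. For Nfe2l2 itself the tungstate difference was -0.14 ± 0.13 in Irs2-/- islets (95% interval -0.44 to 0.16) and -0.28 ± 0.13 in wild-type islets (-0.58 to 0.02). For Keap1 it was 0.00 ± 0.13 in Irs2-/- islets and 0.03 ± 0.13 in wild-type islets. The interaction, the tungstate difference in Irs2-/- minus that in wild-type islets, called 0 of 35 members in limma and 0.0224% of all genes. At an unadjusted p under 0.05 there were 862 of all 13369 genes and 2 of 35 members. Those 2 were Gsto1 (-0.51 ± 0.14, limma adjusted p = 0.653) and Gsta4 (0.64 ± 0.25, limma adjusted p = 0.752). Gsto1 was 0.53 lower with tungstate in Irs2-/- islets and 0.02 lower in wild-type islets, and the 95% interval of the interaction was -0.84 to -0.17. This interval is not adjusted, and Gsto1 had the lowest unadjusted p of the 35 members there, so it is no separate result. A further Gsto1 probe set gave -0.54 in Irs2-/- and -0.30 in wild-type islets, so the genotypes lay closer together on it.

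**Figure D4:**
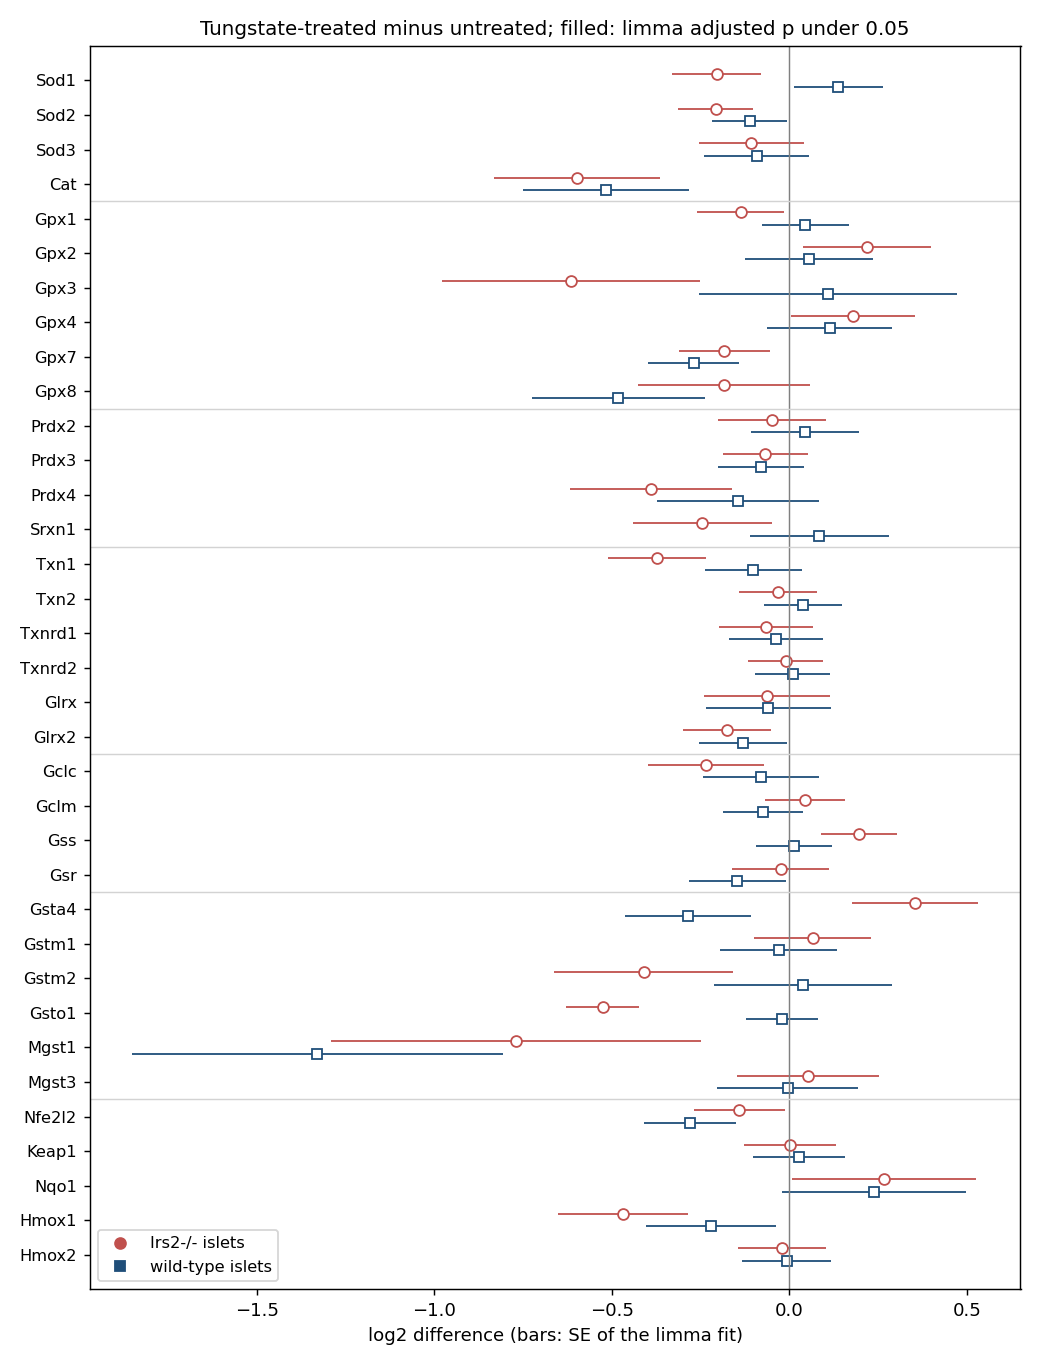
Log2 difference of tungstate-treated minus untreated islets (x axis) for the 35 genes tested (y axis, grouped by role), in Irs2-/- islets (circles) and wild-type islets (squares); bars are the SE of the limma fit over 2 arrays per group. No symbol is filled, since none passed an adjusted p of 0.05; Gsto1 in Irs2-/- islets (-0.53) and Mgst1 in wild-type islets (-1.33) have the lowest unadjusted p of their comparison.

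Genes around the 38 were taken from 5 further lists of the same pathway, 98 genes of which 78 were tested. In untreated mice 16 rose and 8 fell past the adjusted threshold in Irs2-/- islets, 30.8% of them (16.8% of all genes). The lists were chosen with earlier results of these data known, so a share above that of all genes is no independent support. The 24 called include all 6 tested oxidase genes, which are described below. Among 23 tested glutathione genes, 5 rose and 3 fell (34.8% called). Gsto2, the relative of Gsto1, read 8.48 and 8.29 in untreated Irs2-/- and 6.54 and 6.68 in untreated wild-type islets (1.77 ± 0.21, limma adjusted p = 0.00309). Gstm5, of the same mu class as Gstm2, moved opposite to it at 1.37 ± 0.13 (limma adjusted p = 0.00181), and Gstp1 was 0.88 ± 0.15. Chac2, which degrades glutathione, fell by 0.71 ± 0.17. For tungstate in Irs2-/- islets, Gstm5 was the only gene of the 78 to pass the test, with 9.85 and 9.69 in treated against 10.64 and 10.91 in untreated islets (-1.0 ± 0.13, limma adjusted p = 0.0281). Of the 78, 48 lay below 0 there and 18 had an unadjusted p under 0.05, among them all 6 oxidase genes, from -2.10 to -0.50. Of all 13369 genes, 6952 lay below 0 and 1780 had an unadjusted p under 0.05 in this comparison.

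Of 10 tested genes that supply NADPH, which glutathione and thioredoxin reductase need, 2 fell in untreated Irs2-/- islets, both mitochondrial: Idh2 (-0.63 ± 0.16) and Nnt (-0.55 ± 0.13). This is 20% of the list, near the 16.8% of all genes called in the same comparison. Of 21 thiol and methionine repair genes 1 rose, Msrb1 (0.49 ± 0.13), and 2 fell, Sesn3 (-0.57 ± 0.10) and Glrx5 (-0.39 ± 0.10). At 14.3% called, this list also lay near the share of all genes. Of 18 further NRF2 pathway and iron genes 4 rose and 1 fell (27.8% called, against 16.8% of all genes). Maff, a small MAF protein that pairs with NRF2, was 1.47 ± 0.26 higher (limma adjusted p = 0.0107), Bach2, a repressor that competes at the same elements and is abundant in B cells, was 2.42 ± 0.69 higher (limma adjusted p = 0.0493), and Slc3a2, a subunit of the cystine transporter, fell by 0.54 ± 0.14. Lymphocyte markers averaged 8.35 and 7.28 in untreated Irs2-/- islets, against 6.63 and 5.11 in untreated wild-type islets, with 3 of 7 called higher, and their part in the Bach2 difference was not tested. The cystine-carrying subunit Slc7a11 had a mean of 4.94, below the filter, and was not tested.

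All 6 tested genes of the superoxide-producing oxidases passed as higher in untreated Irs2-/- islets, as did 8.27% of all genes. They included the phagocyte NADPH oxidase subunits Cyba (2.39 ± 0.38), Ncf4 (1.59 ± 0.42) and Cybb (1.48 ± 0.25, limma adjusted p = 0.0101), and Rac2 (2.24 ± 0.60), the GTPase that activates the complex. Cybb read 7.14 and 7.43 in treated and 8.77 and 8.55 in untreated Irs2-/- islets, against 7.31 and 6.89 in treated and 7.55 and 6.81 in untreated wild-type islets, so only untreated Irs2-/- islets stood apart. Between genotypes in treated mice 0 of the 6 passed limma's test (1.02% of all genes did), and for tungstate in Irs2-/- islets Cybb was -1.38 ± 0.25 (limma adjusted p = 0.086). Macrophages make these subunits, and all 11 macrophage markers rose on the same arrays; their part in the result was not tested.

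The counts depended on single arrays, among the members as among all genes. Without untreated wild-type replicate 1, the array lowest in acinar markers, 1 member passed between untreated genotypes (Gsto1), and 6.82% of all genes did. Without untreated wild-type replicate 2, 3 members and 4.88% of all genes passed. Without untreated Irs2-/- replicate 1, 3 members and 5.69% of all genes passed, and without replicate 2, 3 members and 12.0%. Without replicate 1 of both untreated groups, an alternative chosen after seeing the data, Gsto1 was again the only member (1.08, limma adjusted p = 0.0334), with 367 of all 13369 genes. Averaged over treatment 5 members passed there (Mgst1, Prdx4, Gsto1, Cat and Txn1), with 10.4% of all genes. Gsto1 between untreated genotypes passed in every alternative tried, from 0.99 to 1.17. Averaged over treatment, Gsto1, Prdx4, Gpx3, Mgst1, Nqo1 and Txn1 passed without each array in turn. With arrays left out one at a time, the averaged call was lost for Sod1 and Hmox2 without 7 of the 8, for Cat without 5, for Gpx7 without 4 and for Gstm2 without 2. Sod1 and Nqo1 between untreated genotypes each lost the call without 6 of the 8.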

How the data were processed

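Biotin-labelled cRNA was hybridised to 8 Affymetrix arrays. The authors deposited log2 values for each probe set, made by RMA (affy, R 2.7.0), per the submitters' processing notes. RMA fits probes across arrays, so values are comparable between arrays and differences of dim probe sets are compressed. The genome build and scan dates are unknown here.

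There were 45037 probe sets besides 64 controls, and 34945 name 1 gene. For each of 18193 genes the probe set of highest mean across arrays was used. Genes with a mean under the 40th percentile (log2 5.27) were not tested. Group means were fitted to 13369 genes in limma 3.58.1 (R 4.3.3) with empirical Bayes moderation (4 residual and 3.89 prior degrees of freedom). Benjamini-Hochberg adjustment ran over all genes, separately for 6 contrasts, with 0.05 as the threshold. SE are those of this model, with a median of 0.14 between 2 groups; the number of arrays limits precision. In 10 simulations of the contrast between untreated genotypes, 200 of 13369 genes were changed, and 0% were recovered at a log2 size of 0.5, 70.6% at 1 and 94.7% at 2. In the data 2245 of 13369 genes passed this contrast, which makes the adjusted threshold easier to reach than in the simulations. Sod1 passed there at 0.50, so these shares do not tell what the test recovers in the data.

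All members are named. Of other pathway genes the rule names, per contrast, up to 5 higher and 5 lower with the largest called difference, plus a few fixed genes; Gstp1, Maff, Msrb1 and Glrx5 were added as examples after their values were seen. Members and lists were chosen with earlier results of these data known. Alternatives were other filters, moderation, array subsets, normalizations, probe set means, an acinar covariate, array weights, a replicate block, an adjusted p under 0.1, and leaving out each array.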

Additional observations from a re-analysis of the deposited data

How the results depend on the processing

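Shares of all genes called under the same setting stand in brackets. When each array was left out in turn, the 6 genes called between untreated genotypes were 1 to 7 (4.88% to 19.7%), the 11 averaged over treatment 6 to 12 (10.4% to 22.5%), the 1 in treated mice 0 to 7 (0.0224% to 5.08%), tungstate in Irs2-/- islets 0 to 1, and tungstate in wild-type islets and the interaction 0 each time. With the acinar covariate 7 genes passed averaged over treatment (13.4%, against 22.1% without it). In treated mice the count was 0 after median centring (1.14%) and with only the arrays compared (0.942%), and 3 at an adjusted p under 0.1 (3.86%), where tungstate in Irs2-/- islets called 1 (Gsto1, 1.14%). Without untreated replicate 1 of each genotype the counts were 1 for untreated genotypes (367 of 13369 genes), 5 averaged (10.4%) and 0 in treated mice (0.942%). The cause was not tested. Median centring put the median of all differences between untreated genotypes at -0.11, against -0.01 without it, and left 5 members called, 4 higher and 1 lower (20.9%). No difference given as passed changed sign, but many settings leave the difference itself as it was. Replicate numbers are shared between groups, but deviations of same-numbered arrays correlated at -0.07 to 0.42, over 0.1 for 3 of 6 pairs of groups and above 0 for 5, so the number does not establish a pairing. With the replicate block 7 members passed between untreated genotypes (18.2%), Cat being added to the 6 (adjusted p = 0.0247 in limma), 11 averaged over treatment (23.6%) and 1 in treated mice (1.32%), Nqo1 in place of Gsto1. It was 0 for tungstate in either genotype and for the interaction.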

Other observations

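Several members had a further probe set whose group means moved differently, given here as values with no test. For Sod2, untreated Irs2-/- minus untreated wild-type islets was 0.08 on the probe set used, and 0.33, -0.60 and -0.14 on the 3 others. For Txnrd1 it was -0.07 on the probe set used and -0.82 on a dimmer one, which read 6.06 and 5.30 in treated and 5.52 and 4.91 in untreated Irs2-/- islets, against 5.87 and 5.84 in treated and 6.05 and 6.01 in untreated wild-type islets. For Srxn1 the probe sets gave 0.36 (the one used), 0.61, 0.00 and 0.24.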
